A study of Mus musculus with 3 samples.

Results

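Cluster 9 is a group of cells of the mouse iridocorneal angle and limbus that the paper classed as melanocytes, as it did cluster 8. Cluster 9 is described here by *Syt4*, *Mcoln3*, *Gpnmb* and *Dct*, which cluster 8 also expressed. Its members are the cells that passed the authors' filters and carry the deposited cluster identity 9, which were 1802 of 26008 kept cells (6.93%). The cells came from 3 droplet libraries of single-cell RNA, 2 from control pools and 1 from an *Angpt1*ΔNC pool, each made of 2 to 3 mice of 6 weeks with the sexes mixed according to the labels. Control mice had the genotype *Angpt1* flox/flox and *Angpt1*ΔNC mice *Angpt1* flox/flox;Wnt1Cre+, so both groups carried the floxed allele. The strain is given as mixed, and the mice were bred for 2 generations to ICR so that they were albino. *Wnt1*-Cre deletes the floxed gene in the neural crest lineage, to which melanocytes belong. The *Angpt1*ΔNC group has 1 library, and its genotype, pool, sex makeup and library cannot be told apart.

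Melanocytes of the uvea descend from the neural crest, whereas the pigment epithelia of the retina, ciliary body and iris descend from the optic cup. Both make melanosomes, lysosome-related organelles in which the enzymes TYR, TYRP1 and DCT convert tyrosine to melanin on fibrils of PMEL. In the melanocyte lineage SOX10 and PAX3 switch on *Mitf*, the gene of the factor that drives the pigment genes through short E-box and M-box motifs. KIT, EDNRB, MC1R and MET receive signals from neighbouring cells. Albino ICR mice carry an inactive tyrosinase, which stops pigment formation but not the transcription of the pigment genes.

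The sequences below are shown because each lies just upstream of a pigment or ion channel gene described in cluster 9 and holds the core of such a motif. They are the 200 bases that end at the base before the annotated transcription start, from RefSeq on build GRCm38.p6, written 5′ to 3′ on the strand of the gene. The M-box core TCATGTG is in capitals, or CACATGA where the motif reads on the opposite strand. Both strands were searched.
*Tyr*, chr7:87493513-87493712, minus strand: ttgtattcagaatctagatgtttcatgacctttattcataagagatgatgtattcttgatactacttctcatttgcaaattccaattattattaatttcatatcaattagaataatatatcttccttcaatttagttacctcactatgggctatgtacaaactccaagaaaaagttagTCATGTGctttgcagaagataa
*Tyrp1*, chr4:80834013-80834212, plus strand: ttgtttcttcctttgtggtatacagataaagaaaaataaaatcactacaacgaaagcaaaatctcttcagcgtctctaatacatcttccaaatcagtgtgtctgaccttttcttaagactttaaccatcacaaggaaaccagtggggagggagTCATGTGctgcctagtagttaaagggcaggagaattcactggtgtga
*Dct*, chr14:118052247-118052446, minus strand: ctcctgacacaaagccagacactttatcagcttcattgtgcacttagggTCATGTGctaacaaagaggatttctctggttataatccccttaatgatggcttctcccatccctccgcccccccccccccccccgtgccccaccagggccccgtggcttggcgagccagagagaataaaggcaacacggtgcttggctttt
*Slc24a5*, chr2:125067927-125068126, plus strand: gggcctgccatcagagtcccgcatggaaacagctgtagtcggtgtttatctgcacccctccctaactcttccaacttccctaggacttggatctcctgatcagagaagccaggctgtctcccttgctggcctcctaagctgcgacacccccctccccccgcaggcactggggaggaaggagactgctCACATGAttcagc
*Trpm1*, chr7:64153635-64153834, plus strand: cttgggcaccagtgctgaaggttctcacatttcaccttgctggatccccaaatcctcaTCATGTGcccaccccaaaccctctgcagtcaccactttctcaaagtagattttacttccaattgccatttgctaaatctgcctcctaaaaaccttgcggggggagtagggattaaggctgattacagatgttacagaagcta
*Kcnj13*, chr1:87394730-87394929, minus strand: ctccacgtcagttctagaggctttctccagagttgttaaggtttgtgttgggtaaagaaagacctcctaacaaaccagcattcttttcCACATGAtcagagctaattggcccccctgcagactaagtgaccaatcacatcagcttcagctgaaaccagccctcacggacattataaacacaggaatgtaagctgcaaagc
The motif began 22 bases before the start in *Tyr*, 47 in *Tyrp1*, 151 in *Dct* (with another at 232, outside the printed window), 13 in *Slc24a5*, 142 in *Trpm1* and 112 in *Kcnj13*. In windows of 250 bases before to 50 after the start it was present in 1239 of 32851 promoters (3.77%), or 1165 of 27025 genes (4.31%). Of the melanin synthesis enzymes, 3 of 5 had it (*Tyr*, *Tyrp1* and *Dct*), and of the melanosome ion transport genes 3 of 11 with a window (*Slc24a5*, *Trpm1* and *Slc7a11*). None of the 3 melanosome matrix genes and none of the 13 lineage transcription factors with a window held it. Of 23 melanosome traffic genes with a window 1 did (*Hps1*). Among 16 genes of optic cup pigment epithelium *Kcnj13* alone did. The motif was also in 2 of 7 macrophage genes (*C1qb* and *C1qc*). A match describes the letters in these windows, not a bound site.

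Cluster 9 had 711 cells in control 1, 799 in control 2 and 292 in *Angpt1*ΔNC. A cell had a median of 5427, 5504 and 7320.5 unique molecular identifiers (UMIs) in that order, from 1001 to 19740 in all, with 2060, 2028 and 2403 genes detected. Levels below are means over cells of UMIs per 10,000, and where 3 values follow each other they stand in the order control 1, control 2, *Angpt1*ΔNC. Shares of cells with at least 1 UMI move with depth and with free RNA, so they are set beside the corneal and limbal epithelium (clusters 4 and 5), which lacks the defining pigment cell genes and had median depths of 17717, 15168.5 and 15135 UMIs. Kept cells of different libraries shared 52 barcodes, 1 of them between cells of cluster 9. Counting each library as 1 sample leaves 2 controls against 1, and a permutation of 3 libraries cannot give a p below 0.333.

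*Dct* and *Gpnmb* were found in nearly every cell. *Mcoln3* was found in 62.4, 63.7 and 64.0% of cells, at levels of 2.28, 2.14 and 1.70. At least 2 of *Syt4*, *Mcoln3*, *Gpnmb* and *Dct* were detected in 703 of 711, 792 of 799 and 291 of 292 cells. *Dct*, the dopachrome tautomerase of melanin synthesis, had levels of 112, 138 and 203 and was absent from 1 cell of the 1802. In epithelial cells *Dct* had UMIs in 15.2, 23.4 and 20.7% of cells, a trace that fell to 2.34, 3.27 and 2.43% once every cell was thinned to 2000 UMIs, against 99.9 to 100% in cluster 9. *Pmel*, which forms the melanosome fibrils, was at 120, 121 and 117. *Mlana*, a melanosome protein used to identify melanocytes, was at 31.0, 35.3 and 42.4. The libraries thus lay close together for *Pmel*, while *Dct* and *Mlana* were highest in *Angpt1*ΔNC.

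Of the other enzymes, *Tyrp1* was at 35.7, 41.6 and 45.3 and *Tyr*, the enzyme of the first step, at 4.21, 4.12 and 4.65. Among the transporters of the melanosome membrane, *Slc24a5*, a potassium-dependent sodium-calcium exchanger, was at 22.1, 21.5 and 25.7. *Slc45a2*, another melanosome transporter, was at 5.20, 4.82 and 4.17, and *Oca2*, needed for melanosome pH, at 2.43, 2.63 and 2.49. *Trpm1*, a cation channel of melanocytes and retinal bipolar cells, was at 6.66, 6.50 and 9.0. These are levels per UMI and not per transcript length. In a 3′ assay they rank transcripts only roughly, so no order between genes is drawn.

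Receptors were uneven. *Ednrb*, the endothelin receptor needed by melanoblasts, was at 23.6, 20.3 and 24.4 and *Met*, the hepatocyte growth factor receptor, at 5.08, 4.52 and 6.78. *Kit*, the stem cell factor receptor, was at 0.180, 0.204 and 0.129 and was found in 8.30, 10.5 and 8.56% of cells. *Mc1r*, the melanocortin receptor, was at 0.0523, 0.0764 and 0.174. *Ednrb* was thus present in 98.0 to 99.3% of cells, while *Kit* and *Mc1r* were seen in few at this depth. *Kitl*, the ligand of KIT, was itself transcribed, at 2.01, 2.29 and 0.846.

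**Figure D1:**
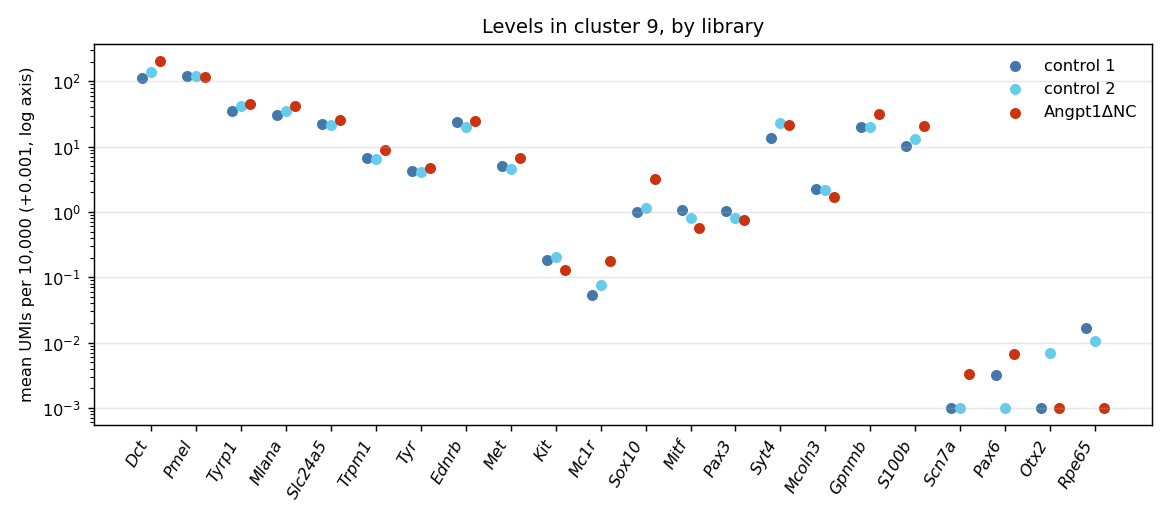
Mean level of melanocyte, glial and optic cup genes in cluster 9 of each library (y axis: UMIs per 10,000, log axis, a small offset added so that genes at 0 can be drawn; x axis: genes; 1 point per library, no error bar since each is 1 pool). Pigment genes such as *Pmel* (117 to 121) sit near the top and the Schwann cell gene *Scn7a* and the optic cup genes *Pax6*, *Otx2* and *Rpe65* near 0 in all 3 libraries.

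The lineage factors were sparse, as transcription factor transcripts often are in droplet data. *Sox10*, the neural crest factor upstream of *Mitf*, had UMIs in 36.1, 37.8 and 76.4% of cells at full depth. After thinning to 2000 UMIs it was in none or 0.102% of epithelial cells, so these shares are at unlike depths. *Mitf* was at 1.06, 0.799 and 0.577 and *Pax3* at 1.02, 0.812 and 0.753. Of the 20 genes listed for optic cup pigment epithelium, 16 were in under 5% of cells in every library and 4 in at least 10%, and the summed level of the list was 140, 164 and 128, beside 908 to 1897 in the retinal pigment epithelium (cluster 1). Almost all of it was *Ptgds*, prostaglandin D synthase, at 136, 160 and 120. The factors of that lineage were near 0: *Otx2* was detected in 0, 0.250 and 0% of cells and *Pax6* in 0.141, 0 and 0.342%. *Rpe65*, the retinoid isomerase of the retinal pigment epithelium, was in 0.422, 0.501 and 0%. *Kcnj13*, a potassium channel known from that epithelium, was nevertheless found in cluster 9 at 2.70, 2.89 and 6.22.

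Schwann cells also come from the neural crest and share *Sox10* and *S100b* with melanocytes. In cluster 9 *S100b*, a calcium-binding protein, was at 10.3, 13.3 and 20.6. Of 18 neural crest and Schwann cell genes, 8 were in at least 10% of cells in every library and 8 in under 5%, with summed levels of 43.6, 48.2 and 64.2 against 139, 144 and 124 in the glial cluster 10. *Cryab*, a small heat shock protein of many tissues, made up 26.2, 27.6 and 33.7 of it. Among members near 0, *Scn7a*, a sodium channel of non-myelinating Schwann cells, was in 0, 0 and 0.342%, and *Gfra3*, a glial receptor, was in no cell. Markers of macrophages, T cells, endothelium and trabecular meshwork were low, with summed levels of at most 0.568, 0.00486, 0.114 and 0.204 in any library, beside 0.981 to 1.39 for the corneal and limbal list that reached 357 to 446 in the epithelium itself. *Mki67*, a marker of dividing cells, had UMIs in 0.281, 0.375 and 0.342% of cells.

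The 15 genes with the highest level in cluster 9 relative to all other kept cells (0.1 added to both, controls averaged) rank the cells by contrast and carry no test, because the same cells made the clusters. *Syt4* came first with a ratio of 14.5. *Nrcam*, a cell adhesion molecule of axons (9.66), *Mcoln3*, a cation channel of endosomes and lysosomes (8.82), *Gpnmb*, a melanosome glycoprotein (8.62), and *Syngr1*, a synaptic vesicle protein (7.78), followed. *Dct* (7.63), *Qpct* (7.63), *Ednrb* (7.62), *Slc24a5* (7.29), *Nedd4l* (7.26), *Phldb3* (7.14), *Car6* (6.91), *Rnase1* (6.91), *S100b* (6.91) and *Cd274* (6.87), the PD-L1 checkpoint ligand, completed the list. The vesicle genes *Syt4* and *Syngr1* were thus on this list with pigment genes. Of 18 exocytosis and synaptotagmin genes, however, 4 were in at least 10% of cells in every library and 12 in under 5%. With 0.01 or 1 added in place of 0.1, 9 and 8 of the 15 stayed on the list.

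Over the 35 deposited labels in the controls, the gene whose level was most like *Mcoln3* was *Slc18a2*, the vesicular monoamine transporter (Pearson r = 0.987), then *Syt4* (0.971), *Scn8a* (0.970), *Trim63* (0.970) and *Car6* (0.969). The genes most like *Syt4* were *Car6* (0.983), *Trim63* (0.975), *Mcoln3* (0.971), *Scrg1* (0.971) and *Stmn3* (0.970). All points of these correlations share the same 2 libraries and 1 clustering, and *Syt4*, *Mcoln3* and *Car6* were also high in cluster 8, so the values describe likeness only. *Slc18a2* was found in 30.8, 40.3 and 26% of cluster 9 cells.

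*Syt4*, a calcium-binding protein of secretory vesicles, varied from cell to cell in a way that the other markers did not. Its level was 13.8 in control 1, 22.7 in control 2 and 21.6 in *Angpt1*ΔNC. It had no UMI in 232 of 711 cells of control 1 (32.6%, exact 95% CI 29.2 to 36.2), 50 of 799 of control 2 (6.26%, 4.68 to 8.17) and 10 of 292 of *Angpt1*ΔNC (3.42%, 1.65 to 6.21), intervals that cover counting error only. Control 1 thus differed from control 2 far more than control 2 did from *Angpt1*ΔNC. The order was the same in deep cells: among cells of at least 5000 UMIs, 134 of 408, 17 of 473 and 3 of 235 lacked *Syt4*. In cluster 8 the same library stood apart, with no *Syt4* UMI in 289 of 839 cells (34.4%), against 28 of 767 (3.65%) and 1 of 442 (0.226%).

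**Figure D2:**
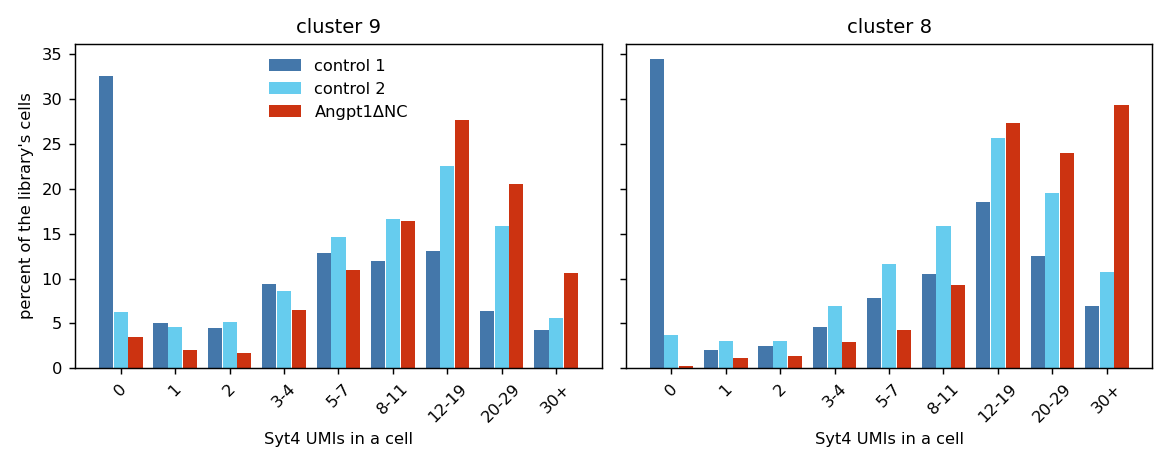
Distribution of *Syt4* UMIs per cell in cluster 9 (left) and cluster 8 (right) as percent of each library's cells (y axis) in bins of UMIs (x axis), with 1 bar per library. Control 1 has a separate peak at 0 UMIs in both clusters (32.6 and 34.4% of cells), which control 2 (6.26 and 3.65%) and *Angpt1*ΔNC (3.42 and 0.226%) lack.

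Within control 1, cells of at least 5000 UMIs without *Syt4* (134) were set beside those with 5 or more *Syt4* UMIs (222). Pigment genes were alike, with *Dct* at 127 and 116, *Mcoln3* at 2.26 and 2.21 and *Gpnmb* at 21.4 and 22.5. *Ubb*, which encodes a polyubiquitin, was at 79.9 against 27.3. *Slc15a2*, a peptide transporter, was detected in 20.9% against 0.450% of cells, and *Mgat4a*, a glycosyltransferase, in 20.9% against 1.80%. Cluster 8 showed the same, with *Ubb* at 63.9 against 27.8. The genes of this comparison were chosen after their values were seen, and since a pool holds 2 to 3 mice whose cells carry no animal label, whether the cells without *Syt4* came from 1 animal was not tested.

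Cluster 8 is the cluster most like cluster 9, with the same pigment genes in deeper cells (medians of 9907, 9262 and 11293 UMIs in 839, 767 and 442 cells). Ratios of the level in cluster 9 to that in cluster 8 are a description with no test. Among genes at 0.5 or more, the 5 melanin synthesis enzymes were lower in cluster 9 in every library, as were 13 of 16 oxidative phosphorylation genes, 5 of 7 melanosome matrix genes and 5 of 7 ion transport genes. Over all 2724 such genes, 34.6% were lower and 39.3% higher in all 3 libraries. *Trpm1* had ratios of 0.470, 0.507 and 0.578, *Oca2* of 0.502, 0.481 and 0.506 and *Tyrp1* of 0.517, 0.527 and 0.588. *Dct* was nearer to equal, at 0.760, 0.766 and 0.854.

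Genes higher in cluster 9 included *Lgals3*, a galactoside-binding lectin, with ratios of 3.34, 2.82 and 1.89, and *Serpine2*, a serine protease inhibitor, with 2.76, 2.20 and 1.87. *Cdkn1a*, the cell cycle inhibitor p21, had 2.29, 2.22 and 1.83, and *Cd9*, a tetraspanin, 2.09, 1.96 and 1.69. The 5 antigen presentation genes at this level were higher in cluster 9 in every library. *Syt4* (1.37, 1.45 and 1.07) and *Mcoln3* (1.26, 1.28 and 1.02), which name cluster 9, were thus only slightly higher than in cluster 8, and *Gpnmb* was equal or slightly higher (1.05, 1.00 and 1.14). *Kcnj13* was lower in cluster 9 (0.386, 0.395 and 0.490), as was *Spp1*, the secreted matrix protein osteopontin (0.298, 0.374 and 0.617).

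**Figure D3:**
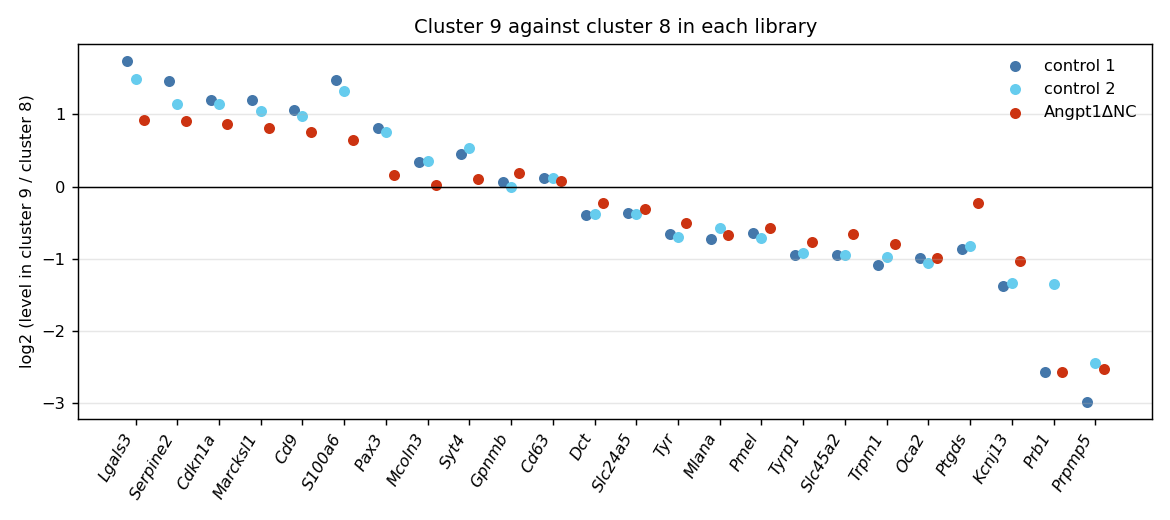
Level in cluster 9 over that in cluster 8 (y axis: log2 of the ratio of mean UMIs per 10,000) for marker, pigment and leading genes (x axis), 1 point per library. *Lgals3* and *Serpine2* lie above 0 and the pigment genes from *Dct* to *Oca2* below 0 in all 3 libraries, and the ratio of *Lgals3* is 3.34 and 2.82 in the controls and 1.89 in *Angpt1*ΔNC.

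Cluster 9 made up 7.83% of the kept cells of control 1 (exact 95% CI 7.29 to 8.41), 7.86% of control 2 (7.35 to 8.40) and 4.31% of *Angpt1*ΔNC (3.84 to 4.82). The controls lay close together, and the *Angpt1*ΔNC share was 0.549 of their mean, outside both counting intervals. A permutation over libraries cannot pass a threshold of 0.05 here, and the share was not tested. The share is set by all other cells as well. Without clusters 1 to 5, whose number may vary with the dissection, it was 9.12, 8.95 and 5.23%, a ratio of 0.579. Fewer melanocytes and more cells of another type in the dissected tissue cannot be told apart.

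Genotype was then compared within cluster 9 on UMI counts summed per library. The targeted gene gave no check, because *Angpt1*, the ligand of the TEK receptor, was detected in 0.141% of cluster 9 cells of control 1, 0.375% of control 2 and in 0 of 292 cells of *Angpt1*ΔNC, where 3 cells would make 1.03%, a limit on cells with a UMI and not on cells that express the gene. *Tek* was in no cell. Of 9652 genes tested, 1264 (13.1%) were called at an adjusted p under 0.05 (edgeR quasi-likelihood test, Benjamini-Hochberg), 617 higher and 647 lower in *Angpt1*ΔNC. Past a log2 difference of 1 there were 564 (5.84%), 239 higher (2.48%) and 325 lower (3.37%), and the median log2 difference over all genes was -0.01. With 1 residual degree of freedom the spread was shared across genes and the lone library was assumed to vary like the controls. The smallest p-values therefore overstate the certainty. DESeq2 called 203 genes, and 127 were called among male-typed cells alone.

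Several properties of the libraries moved with genotype, and their part in the differences was not tested. *Angpt1*ΔNC cells of cluster 9 were deeper, as given above, and their median mitochondrial share was 5.07%, against 3.49 and 4.41% in the controls. Cells with a Y-linked UMI and no *Xist* UMI numbered 478, 533 and 44, and cells with *Xist* and no Y-linked UMI 0, 1 and 207, so both control pools of cluster 9 were male in their transcripts and the *Angpt1*ΔNC pool mostly female, although the labels give mixed sexes. Hemoglobin genes exceeded 1% of the UMIs in 3, 8 and 12 cells (0.422, 1.00 and 4.11%), and those cells held 99.3 to 99.9% of all hemoglobin UMIs. *Hba-a2*, *Hbb-bs*, *Hbb-bt* and *Hba-a1*, near-identical copies among which reads can be split, were among the 10 leading higher genes, with *Hba-a2* at 50, 65 and 7959 summed UMIs. In male-typed cells alone the differences of all 4 changed sign. *Xist*, the RNA of the inactive X chromosome, had 1, 1 and 1171 UMIs.

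The remaining leading higher genes were *Ifi27l2a*, *Il11ra1*, *Slc15a2*, *Gbp2b* and *Gm15726*. *Ifi27l2a*, an interferon-induced gene, had levels of 0.464, 0.415 and 4.5 and was found in 9.0, 7.88 and 52.1% of cells, with a log2 difference of 3.54 ± 0.16 (SE). *Gbp2b*, a guanylate-binding protein, had 9, 7 and 153 summed UMIs, and *Slc15a2* 38, 21 and 227. The *Angpt1*ΔNC library lay above both controls for each, which the rule that named the genes required. *Il11ra1*, an interleukin 11 receptor chain, had 58, 61 and 345 UMIs, while its near copy *Gm13305* had 455, 463 and 30, and since counting could split reads between the pair both are uncertain.

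The leading lower genes were *Gm10260*, *Emb*, *Lpl*, *Astn1*, *Socs3*, *Gm11361*, *H2-Q6*, *Cck*, *Gm13305* and *Klf5*. *Emb*, embigin, a chaperone of monocarboxylate transporters, was at 1.45, 2.40 and 0.0333, with a log2 difference of -5.21 ± 0.28. *Lpl*, lipoprotein lipase, had 344, 539 and 4 summed UMIs, and *Klf5*, a zinc finger factor, 273, 340 and 12. *Socs3*, the inhibitor of cytokine receptor signalling, was at 2.92, 2.24 and 0.422 (log2 -2.66 ± 0.20). For these genes the *Angpt1*ΔNC library lay below both controls, which the same rule required. *Cck*, the peptide cholecystokinin (-3.22), moved to -3.71 without control 1 and -2.44 without control 2. *Astn1* and the class I gene *H2-Q6* had no UMI in *Angpt1*ΔNC and were at least 47.0-fold and at least 36.8-fold lower, taking 3 UMIs as the floor. *Gm10260*, a predicted gene whose reads a near copy may share, had 1238, 1846 and 3 UMIs, a ratio of 264 (counting interval 90.5 to 1282).

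**Figure D4:**
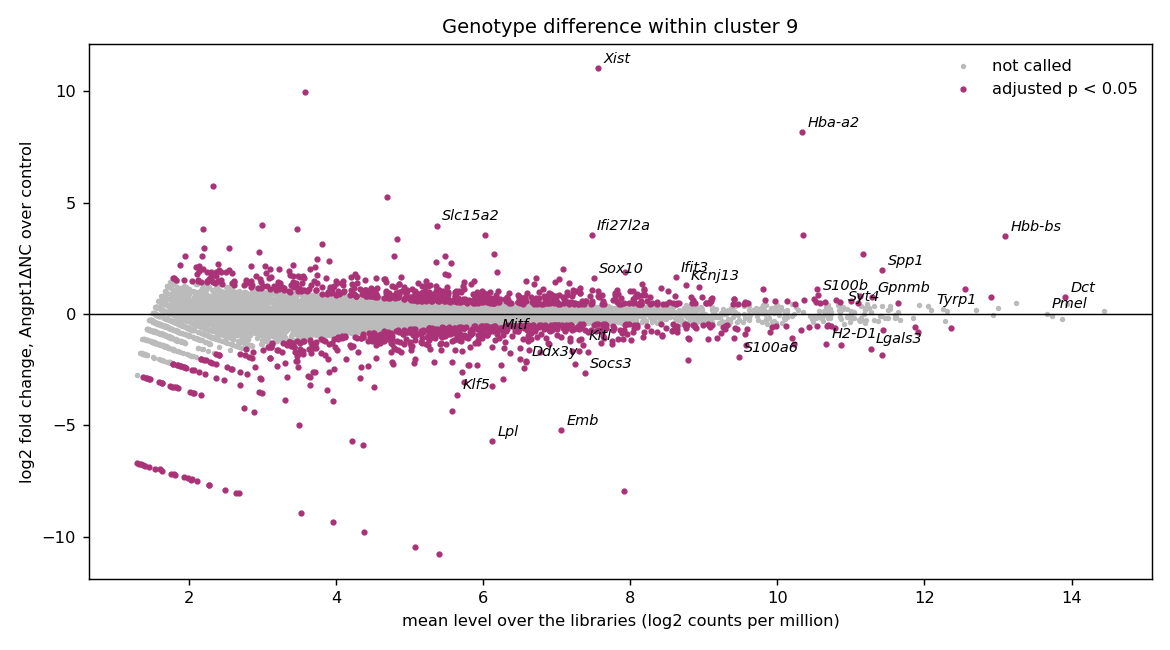
Genotype difference within cluster 9 for each of 9652 genes (y axis: log2 fold change of *Angpt1*ΔNC over control; x axis: mean level over the libraries, log2 CPM). Purple points are the 1264 genes with an adjusted p under 0.05, and the slanted row at the bottom left is made of genes with no UMI in *Angpt1*ΔNC, whose fitted values are no bounds.

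Pigment cell genes are to be read against the 13.1% of all genes that were called. Of the 5 melanin synthesis enzymes, *Dct* alone rose (log2 0.75 ± 0.21, adjusted p = 0.00557), and *Tyr* (0.22), *Tyrp1* (0.20), *Ddt* and *Mif* did not pass the test. The call of *Dct* was lost in male-typed cells and in cells with little hemoglobin, while its log2 difference there was 0.78 and 0.76. The male-typed setting held 44 *Angpt1*ΔNC cells, so a call lost there does not by itself show a smaller difference. Of 7 melanosome matrix genes *Gpnmb* alone rose (0.75 ± 0.17, adjusted p = 3.67e-04), none of 11 ion transport genes passed, and of 26 genes of melanosome traffic *Rab27a* and *Rab32*, small GTPases of melanosome transport and biogenesis, rose. *Gpnmb* lost its call in male-typed cells, where its log2 difference was 0.74. *Rab27a* and *Rab32* kept their calls in 4 of 10 and 3 of 8 alternatives. None of 18 lysosome genes passed. *Syt4* (0.33, adjusted p = 0.221) and *Mcoln3* (-0.33, adjusted p = 0.185) missed the threshold, which does not show that they were equal.

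Of 13 lineage factors tested, 5 were called, beside 13.1% of all genes. *Sox10* was at 1.01, 1.14 and 3.21 and rose (log2 1.61 ± 0.15), and *Sox9*, another SOX factor of the neural crest, was at 0.963, 1.19 and 2.59 (1.15 ± 0.15). *Irf4*, a partner of MITF at the tyrosinase enhancer, and *Tfe3*, a relative of MITF, rose from low counts (39, 49 and 57, and 48, 41 and 50 summed UMIs). *Mitf* fell by 0.90 ± 0.19 on the log2 scale. *Sox10* and *Mitf* thus changed in opposite directions. Under the 10 alternative settings *Sox9* alone of the 5 kept its call in all, and male-typed cells lost 4 of the 5.

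Of the receptors, *Met* (log2 0.49 ± 0.16) and *Mc1r* (1.08 ± 0.39) rose among 11 tested, *Mc1r* with 21, 35 and 29 summed UMIs. The list counts of this paragraph stand beside 13.1% of all genes called, 6.39% higher and 6.7% lower. The calls of the receptors were kept in 5 of 10 alternatives for *Met* and 2 of 8 for *Mc1r*. Both were lost with DESeq2, library totals, equal cell numbers, male-typed and low-hemoglobin cells. *Kitl* fell by 1.41 ± 0.18 and *Gas6*, a ligand of TAM receptors, by 1.10 ± 0.31, which were 2 of 4 ligands tested. *Kitl* kept its call in all 10 alternatives and *Gas6* in 5. Neural crest and Schwann cell genes gave 3 of the 15 reported here, all higher: *Sox10*, *S100b* (0.85 ± 0.17) and *Fabp7*, a fatty acid binding protein. The median of the 15 was -0.25, below the -0.01 of all genes, and all 3 calls were lost in male-typed cells. In the optic cup list 4 of 20 genes had counts to test, and *Kcnj13* (1.29 ± 0.15) and *Ttr*, transthyretin, rose while *Rdh5*, a retinol dehydrogenase, fell. *Kcnj13* had no UMI in 48.4, 44.1 and 17.1% of cells. Of the exocytosis list, *Stmn3*, *Stx3* and *Tubb3* rose among 6 tested, and *Stmn3* alone kept its call in all 10 alternatives.

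Interferon-stimulated genes rose together, 11 of 15 tested and none lower, with a median log2 difference of 0.66 beside -0.01 over all genes, of which 6.39% were called higher. *Ifit3*, an antiviral protein with tetratricopeptide repeats, was at 2.21, 2.40 and 6.74 (log2 1.66 ± 0.15). *Rsad2*, viperin, was at 0.263, 0.145 and 0.983 (2.31 ± 0.19), and *Usp18*, which removes ISG15 from proteins, at 0.244, 0.234 and 0.836 (1.76 ± 0.19). *Isg15* itself was at 7.51, 6.72 and 8.95 (0.51 ± 0.16). *Ifi27l2a*, *Ifit1* and *Rtp4* kept their calls under all 10 alternatives, while in male-typed cells 6 others of the 11 lost theirs and *Isg15* and *Oasl2* changed sign. Sex, pool and genotype cannot be told apart for this list.

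Antigen presentation genes split, with 9 of 12 called, 4 higher and 5 lower. Of all genes 13.1% were called, 6.39% higher and 6.7% lower. *H2-D1*, a classical class I gene, was at 26.2, 16.2 and 7.93 (log2 -1.33 ± 0.18), *H2-K1* at 6.72, 7.77 and 3.82 (-0.84 ± 0.17), and *Tap1*, *Psmb8* and *Nlrc5* also fell. All 5 of these calls were lost in male-typed cells, where the differences were -1.14, -0.86, -0.35, -0.56 and -1.25 in that order. *Tap1* was called in 3 of 10 alternatives. *B2m*, the class I light chain, was at 17.9, 20.4 and 20.8 and was not called. The class II genes *Cd74*, *H2-Aa*, *H2-Ab1* and *H2-Eb1* rose, but *Cd74* was seen in only 3.94, 4.01 and 4.79% of cells, and *Cd74*, *H2-Aa* and *H2-Ab1* turned negative in male-typed cells, where *H2-Eb1* was not among the genes tested. DESeq2 lost 6 of the 9 calls. *H2-Ab1* (2.11) moved to 1.69 without control 1 and 2.76 without control 2.

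Dissociation stress genes were mostly lower in *Angpt1*ΔNC, 12 of 16 against 1 higher (*Fosb*), with a median log2 of -1.03 beside 6.7% of all genes called lower. *Hspa1a*, an inducible heat shock protein, was at 1.76, 0.986 and 0.325 (log2 -2.15 ± 0.21) and *Atf3*, a stress-induced factor, at 4.61, 4.04 and 2.13 (-0.94 ± 0.17). *Fos* was at 3.54, 0.815 and 1.05, so that these levels differed more between the controls than between control 2 and *Angpt1*ΔNC. Its log2 difference of -1.67 was -0.40 without control 1 and -2.34 without control 2. DESeq2 lost 9 of the 13 calls, and male-typed cells lost 10 and reversed 1. *Atf3* alone kept its call in every alternative. The summed level of the list was 66.4, 55.0 and 49.8 in cluster 9 and 52.0, 47.2 and 44.6 in cluster 8. It was 92.8, 87.7 and 54.2 in the epithelium, 161, 108 and 111 in cluster 10 and 35.8, 36.0 and 108 in cluster 1. Of 16 oxidative phosphorylation genes, *Ndufs4* and *Uqcrb* rose and *Cox5a* fell.

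The remaining lists held few calls. Of 12 growth and survival genes, *Ccnd2*, a D-type cyclin, and *Cdk2*, a cell cycle kinase, rose, beside 13.1% of all genes called, and the calls were kept in 3 and 7 of 10 alternatives. *Pcna*, the replication clamp, fell as 1 of 5 cell cycle genes with counts to test (log2 -0.70 ± 0.22), and *Angptl4* fell as 1 of 3 genes of the TEK pathway. Among markers of other cell types, *Krt15*, a limbal keratin, rose as 1 of 7 epithelial genes and *Dcn*, the proteoglycan decorin, as 1 of 5 stromal genes, while *C1qa* fell as 1 of 7 macrophage genes and *Myh11* as 1 of 4 mural genes, both with 2 UMIs in *Angpt1*ΔNC. None of 3 trabecular meshwork genes passed, and no T cell or endothelial marker had counts to test. These lists thus moved in no common direction.

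**Figure D5:**
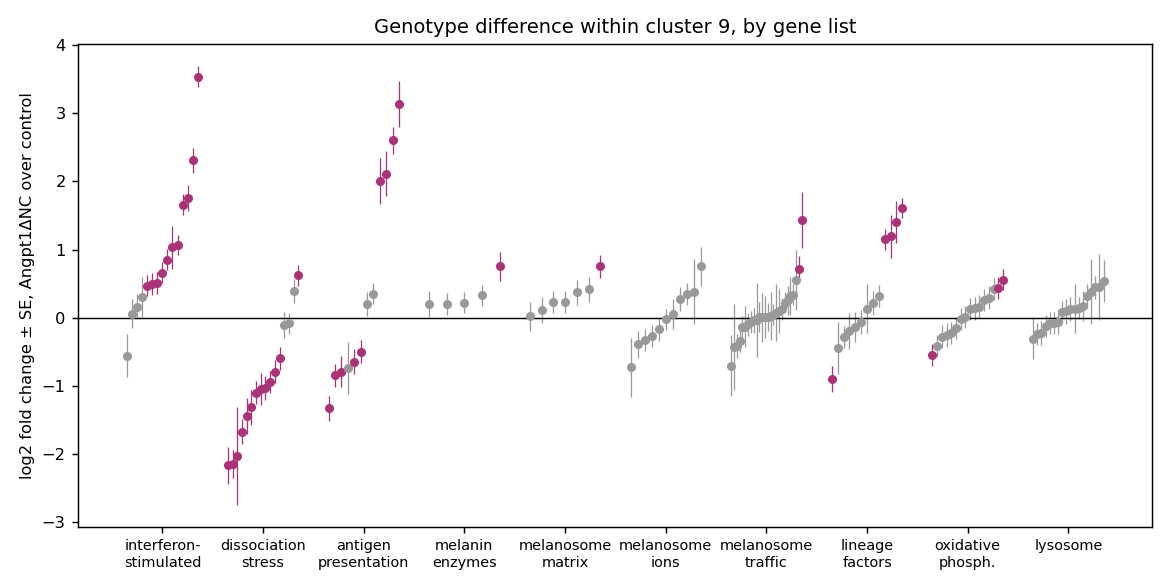
Log2 difference of *Angpt1*ΔNC over control within cluster 9 (y axis, points with SE bars from the fit) for the tested members of 10 gene lists (x axis, sorted within each list). Purple marks an adjusted p under 0.05, which 13.1% of all genes tested had. Interferon-stimulated genes lie mostly above 0 (11 of 15 called) and stress genes mostly below (12 of 16), while the melanin, melanosome ion and lysosome lists scatter around 0 with 1, 0 and 0 calls.

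To tell a difference of cluster 9 from one found in cells of every kind, the genotype difference in cluster 9 was compared with that in all other kept cells, with the library as a block. Of 9652 genes, 415 (4.3%) differed, 190 towards higher (1.97%) and 225 towards lower values (2.33%) in cluster 9. Past a log2 difference of 1 there were 225 (2.33%), 105 higher (1.09%) and 120 lower (1.24%). The other cells are a mixture whose makeup differs between libraries, so with cluster 8 as the comparator 138 genes were called, 59 of them among the 415 in the same direction. Several leading genes of the genotype comparison did not pass this test: *Gm10260* had a difference of 0.02 on the log2 scale (adjusted p = 0.996), *Gbp2b* of 0.47 (0.504) and *Slc15a2* of 0.85 (0.156).

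Of the 20 leading genes, 4 kept the call under every alternative, cluster 8 included, namely *S100a6*, *Lgals3*, *Spp1* and *Ifi27l2a*. *S100a6*, a calcium-binding protein, was at 9.82, 11.0 and 2.45 in cluster 9 and at 32.5, 34.5 and 43.8 in the other cells, a difference of -2.40 ± 0.11 that was -0.59 against cluster 8. *Lgals3* was at 36.7, 29.9 and 9.81 against 6.21, 5.42 and 5.36 (-1.67 ± 0.11, and -0.52 against cluster 8). *Spp1* was at 11.8, 13.7 and 49.4 against 14.6, 17.1 and 25.1 (1.24 ± 0.10, and 0.93 against cluster 8). *Ifi27l2a* had 2.87 ± 0.25, and 1.39 against cluster 8. For all of these the *Angpt1*ΔNC library lay outside both controls in cluster 9. The naming rule already required this of the ratio of cluster 9 to the other cells. Per cell the shift was broad: the median level of *Lgals3* was 26.1, 21.5 and 3.45, and *Spp1* had no UMI in 41.4, 43.7 and 4.79% of cells. Cluster 8 moved the same way, with medians of 6.89, 7.23 and 2.65 for *Lgals3* and no *Spp1* UMI in 7.99, 10.7 and 0.226% of cells.

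Genes whose genotype difference was lower in cluster 9 than in the other cells included *Emb* (-5.77 ± 0.37), which was at 1.91, 1.92 and 2.86 in the other cells. *Cd109*, a surface protein that binds TGF-beta (-2.86 ± 0.21), *Klf5* (-3.82 ± 0.31), *Klf4* (-1.42 ± 0.15), *Emp1* (-1.85 ± 0.16), *Cdc42ep3* (-2.45 ± 0.23), *Ppa1* and *Anxa1* completed the 10 leading lower genes with *S100a6* and *Lgals3*. Against cluster 8 none of these 8 genes was called and the values were smaller, at -0.80 for *Emb*, -0.79 for *Cd109*, -1.26 for *Klf5*, -0.29 for *Klf4*, -0.64 for *Emp1* and -0.12 for *Cdc42ep3*. *Klf5* and *Emp1* are transcribed by the surface epithelium, where *Klf5* was at 4.36, 3.95 and 3.6. In the other direction *Ttr* led (4.78 ± 0.23), but its level in the other cells went from 15.2 and 7.47 to 1.13, and against cluster 8 the value was -0.0583. *Cd72*, a B cell surface protein, had 0, 0 and 74 summed UMIs and was at least 47.2-fold higher, in 20.5% of *Angpt1*ΔNC cells, and cluster 8 moved with it (0.00276, 0.00486 and 0.552). By list, and beside 4.3% of all genes, 3 of 15 interferon-stimulated genes passed this test (*Ifi27l2a*, *Rsad2* and *Usp18*, all higher), 3 of 15 neural crest genes (*Sox10*, *S100b* and *Fabp7*, all higher) and 6 of 12 antigen presentation genes (the 4 class II genes higher, *Psmb8* and *Nlrc5* lower). Of these, *Usp18* and *Fabp7* kept the call in 2 of 6 alternatives, and DESeq2 lost *Sox10*, *S100b* and *Fabp7*. Members of other lists that differed from the other cells included *Sox9*, *Stmn3* and *Kcnj13*, which were higher, and *Kitl* and *Gas6*, which were lower. Of the stress genes, *Fosb* and *Jund* were higher and *Hspa1a*, *Hspa1b* and *Hsp90aa1* lower. *Stmn3* and *Kcnj13* kept the call under every alternative. *Kitl* kept it in 1 of 6 and *Gas6* in 2 of 6, and both changed sign against cluster 8.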

How the data were processed

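The limbus and iridocorneal angle were profiled by 10x Genomics droplet sequencing in 2 control libraries and 1 *Angpt1*ΔNC library. The authors deposited raw UMI counts of 31053 genes, with no normalization, and a cluster label for each kept cell (200 or more genes, 1000 or more UMIs and mitochondrial reads up to 10%). The submitters' processing notes name Cell Ranger 2.1.1, Seurat 3.1.3 and build mm10, while the matrix headers name Cell Ranger 3.0.2. An integrated table deposited on a natural log scale was not used for levels.

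Cells of cluster 9 were taken by label, and levels were computed as mean UMIs per 10,000. Cluster 9 held 3870988, 4483756 and 2169226 UMIs in control 1, control 2 and *Angpt1*ΔNC, and median mitochondrial shares were 3.49, 4.41 and 5.07%. Summed counts of genes with at least 30 UMIs were tested with edgeR 4.0.16 in R 4.3.3 (TMM factors, quasi-likelihood F-test), for genotype within cluster 9 and for the interaction with all other kept cells. DESeq2 1.42.0, other filters and normalizations, equal cell numbers, thinning to 2000 UMIs, marker-selected cells and male-typed cells were alternatives, and male-typed cells in the interaction and low-hemoglobin cells were added after seeing the data. The fits were tested on simulated data. The authors had removed doublets with scDblFinder, and none were called again.

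Genes were named by rule: the 15 highest ratios, list members that were called or had the highest control levels, and the 10 genes higher and the 10 lower with the smallest adjusted p among those called, past a log2 change of 1 and outside both controls. Some list members are not reported here and were left out of the counts of their list. Members and lists were chosen with earlier results of these data known. Intervals are exact 95% binomial. The libraries are separate pools of mice. Only the 2 control pools gave a spread, which was shared across genes and assumed for the lone *Angpt1*ΔNC pool. The p-values therefore do not measure the spread between *Angpt1*ΔNC pools. Python 3.11.15 with scipy 1.17.1 and matplotlib 3.10.9 was used.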

Additional observations from a re-analysis of the deposited data

Results flagged for a closer look

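The genotype difference in cluster 9 differed from that in the other kept cells for 415 genes by an interaction test in edgeR, and the leading 20 of them are given here with that difference on the log2 scale. Towards higher values in cluster 9 of *Angpt1*ΔNC stood *Ttr* (4.78), *Cd74* (2.91), *Cd72* (12.54, a fitted value against controls at 0 UMIs and no bound), *Spp1* (1.24), *Hbb-bs* (1.99), *Ifi27l2a* (2.87), *Pla2g7* (4.14), *1600014C10Rik* (5.96), *Lactb* (2.26) and *4833422C13Rik* (3.95). Towards lower values stood *S100a6* (-2.40), *Lgals3* (-1.67), *Emb* (-5.77), *Cd109* (-2.86), *Klf5* (-3.82), *Emp1* (-1.85), *Cdc42ep3* (-2.45), *Anxa1* (-1.10), *Ppa1* (-1.42) and *Klf4* (-1.42). With cluster 8 in place of the other kept cells, *Spp1* (0.93), *Ifi27l2a* (1.39), *Cd74* (2.49), *S100a6* (-0.59) and *Lgals3* (-0.52) were called and the other 15 were not, with *Emb* at -0.80, *Cd109* at -0.79, *Klf5* at -1.26, *Emp1* at -0.64 and *Cdc42ep3* at -0.12. *1600014C10Rik* and *Anxa1* were not called for genotype within cluster 9 itself (log2 0.78 and -0.28), and the other kept cells they are compared with are a mixture of types.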

How the results depend on the processing

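No paired analysis was possible because the single *Angpt1*ΔNC library shares no pairing with the controls, and replicate numbers were given in accession order. The 1264 genes called for genotype became 675 with library totals (252 of them higher, 37.3% against 48.8%), 203 with DESeq2, 570 with equal numbers of cells, 577 with thinned cells, 127 with male-typed cells and 676 with low-hemoglobin cells. The 415 calls of the interaction became 138 with cluster 8 as comparator, 151 with DESeq2 and 154 in male-typed cells. The cause was not tested, although the male-typed setting rests on 44 *Angpt1*ΔNC cells. The share ratio of 0.549 moved to 0.579 without clusters 1 to 5 and to 0.553 in cells with at least 2 markers, and leaving out a control gave 0.548 to 0.550. Without either control the fits have no residual degree of freedom, so counts of calls could not be recomputed. Of the 564 genes past a log2 change of 1, 563 kept their direction without either one. These genes were picked with both controls in the fit and the same *Angpt1*ΔNC library, so few could change direction.

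In male-typed cells these genotype differences changed sign (log2): *Hba-a2* -1.82, *Hbb-bt* -12.12, *Hbb-bs* -8.24, *Hba-a1* -13.79, *Cd74* -2.19, *Fos* 0.65, *Isg15* -0.35, *Oasl2* -0.0608, *H2-Aa* -0.82, *H2-Ab1* -6.74, *Ddx3y* 0.16, *Uty* 1.14 and *Eif2s3x* -0.36. *Ddx3y* and *Uty* are among the Y-linked genes that defined male-typed cells, so their values there follow from the choice of cells. In the interaction these changed sign in male-typed cells: *Hbb-bs* -9.01, *Cd74* -2.37, *H2-Aa* -1.18 and *H2-Ab1* -10.31. With cluster 8 as comparator *Hbb-bs* was -0.46, *Ttr* -0.0583, *Kitl* 0.50, *Gas6* 0.0358, *Psmb8* 0.12, *Cdh1* 0.55 and *Bcl2* -0.0064. Fitted values below -6 come from genes at or near 0 UMIs. At this depth genes such as *Kit*, *Mc1r* and *Irf4* were detected in few cells.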
